A study of Mus musculus with 3 samples.

Results

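The genes for matrix-degrading proteases and their inhibitors (10 of 32285 genes in the count table) were followed across the leukocytes of the mouse aorta. They were chosen by symbol, with earlier results of these data known. They comprise 6 matrix metalloproteinases (Mmp8, Mmp9, Mmp12, Mmp13, Mmp14 and Mmp19), 2 tissue inhibitors of metalloproteinases (Timp1 and Timp2) and 2 cysteine cathepsins (Ctss and Ctsk), and all 10 were found in the table. Viable CD45+ cells from 10 mouse aortas were tagged with 1 hashtag antibody per mouse, pooled, sorted and sequenced together by CITE-seq, a droplet assay of RNA and surface antibodies in single cells. Leukocytes in the blood had been stained intravenously shortly before death and were excluded at the sort. The 5 Jak2WT mice carried hashtags 1 to 5. The 5 Jak2V617F MyC mice (Jak2V617F Myel in the study's own text) carried hashtags 6 to 10, and they express mutant Jak2 from a Flex allele under Cre driven by the Lysozyme M promoter, which acts mainly in myeloid cells and not in macrophages alone. An aneurysm was seen at collection in mice 7 and 9, while mice 6, 8 and 10, labelled as without aneurysm, had limited dilation by the study's text. All mice were untreated and on a C57BL/6 background, and their age is not given in the labels. The mouse was the replicate throughout, the 2 genotypes were stained with different fluorophores before the sort and brought to about equal cell numbers, and cell numbers per mouse therefore do not measure how many cells an aorta held.

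The wall of the aorta owes its strength to elastin and collagen. Matrix metalloproteinases are zinc enzymes that cleave them, most of them secreted as inactive proenzymes, and tissue inhibitors of metalloproteinases bind and block the active forms. Macrophages are known for macrophage elastase (Mmp12), for the collagenase Mmp13 and for Mmp14, a membrane-bound enzyme that activates other metalloproteinases. Neutrophils store the collagenase Mmp8 and the gelatinase Mmp9 in granules. Cathepsin S (Ctss) is an elastin-cleaving lysosomal protease of antigen-presenting cells, and cathepsin K (Ctsk) is the collagen-cleaving protease of osteoclasts.

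On the GRCm38 (mm10) assembly, Mmp13, Mmp12 and Mmp8 lie on chromosome 9 within a run of 9 metalloproteinase genes that GENCODE vM21 lists in the order Mmp13, Mmp12, Mmp1b, Mmp3, Mmp10, Mmp8, Mmp27, Mmp20 and Mmp7. Mmp13 spans 7272514 to 7283331, Mmp12 7344381 to 7369499 and Mmp8 7558456 to 7568485, all on the plus strand. The end of Mmp12 overlaps Mmp1b on the opposite strand. Mmp14 lies on chromosome 14 (54431612 to 54445364, plus), Mmp9 on chromosome 2 (164940780 to 164955850, plus) and Mmp19 on chromosome 10 (128790910 to 128800824, plus). Timp1 lies on chromosome X (20870166 to 20874735, plus), inside Syn1 on the opposite strand, and Timp2 on chromosome 11 (118301069 to 118355740, minus). Ctsk and Ctss are neighbours on chromosome 3 (95499256 to 95509362 and 95526786 to 95556403, both plus). The Ensembl identifier in the count table was the same as in the annotation for all 10.

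Promoter windows of the 4 genes with the strongest concentration in a single macrophage cluster are shown. That cluster held the largest share of the UMIs of each, though not always in the same cells, as given below. Each window holds 250 bases before and 50 after a RefSeq transcription start (GRCm38.p6), written 5′ to 3′ on the gene's strand. Capitals mark matches to TGANTCA, the AP-1 motif, and TATAAA, the TATA box, searched on both strands together with the STAT motif TTCNNNGAA. The windows are chr9:7347124-7347423 (+, the second of 2 RefSeq starts of Mmp12), chr9:7272264-7272563 (+), chr14:54431348-54431647 (+) and chrX:20869916-20870215 (+).
Mmp12: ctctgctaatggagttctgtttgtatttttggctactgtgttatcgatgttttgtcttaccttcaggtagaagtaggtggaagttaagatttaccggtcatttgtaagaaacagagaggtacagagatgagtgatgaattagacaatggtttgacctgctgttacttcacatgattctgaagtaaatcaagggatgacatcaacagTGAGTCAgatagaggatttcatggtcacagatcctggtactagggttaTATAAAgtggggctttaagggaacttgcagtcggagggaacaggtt
Mmp13: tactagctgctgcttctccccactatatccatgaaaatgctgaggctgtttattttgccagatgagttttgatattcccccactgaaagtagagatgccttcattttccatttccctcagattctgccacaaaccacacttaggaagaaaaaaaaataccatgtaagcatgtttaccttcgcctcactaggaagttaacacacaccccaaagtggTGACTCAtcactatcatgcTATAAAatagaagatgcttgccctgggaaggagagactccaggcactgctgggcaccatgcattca
Mmp14: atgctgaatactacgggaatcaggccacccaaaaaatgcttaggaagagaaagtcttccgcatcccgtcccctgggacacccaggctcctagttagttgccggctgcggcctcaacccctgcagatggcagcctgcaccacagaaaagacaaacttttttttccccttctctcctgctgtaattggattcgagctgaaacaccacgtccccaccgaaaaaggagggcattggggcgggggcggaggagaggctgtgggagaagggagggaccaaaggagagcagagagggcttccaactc
Timp1: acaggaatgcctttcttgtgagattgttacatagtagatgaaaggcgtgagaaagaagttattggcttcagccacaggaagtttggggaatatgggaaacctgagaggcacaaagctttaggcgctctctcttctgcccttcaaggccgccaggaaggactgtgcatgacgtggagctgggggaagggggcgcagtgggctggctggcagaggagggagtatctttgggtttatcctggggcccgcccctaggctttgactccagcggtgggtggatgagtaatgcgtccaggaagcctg
The neighbours Mmp12 and Mmp13 each held 1 AP-1 match, beginning 44 and 35 bases before the start, and 1 TATA box match, beginning 4 bases after and 16 bases before it. Mmp14 and Timp1 held no match to the 3 motifs in these windows. Across all 32851 mouse windows of this length, 7.81% held the AP-1 motif, 8.3% the STAT motif and 13.6% the TATA box. Windows were found for 8 of the 10 genes, all but Mmp9 and Mmp19. Among them, AP-1 matches occurred in Mmp12 and Mmp13, TATA box matches also in Mmp8 and Ctss, and the STAT motif in no window. The TATA box matches of Mmp8 and Ctss lay on the opposite strand, beginning 3 and 233 bases before the start. The other RefSeq start of Mmp12, not printed, held none of the 3 motifs, so the Mmp12 matches hold for 1 of its 2 starts. The window of that other start (chr9:7344147-7344446) covers the gene start given above, while the printed window lies inside the gene. GC content of the windows ranged from 38.7% (the other start of Mmp12) to 68.7% (Timp2), against a median of 52.7% over all windows.

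The table held 8471 barcodes, of which 5857 carried 1 hashtag, and 4871 cells with at most 10% mitochondrial counts were kept (112 to 811 per mouse). The 2265 barcodes with more than 1 hashtag were removed, so each kept barcode belongs to 1 mouse by the way it was assigned. Total UMIs (counted RNA molecules) per mouse ranged from 1038443 to 9643994. Cells were clustered without the protease genes and named from marker lists, so every cell name here means cells like that type. There were 1735 macrophages after 386 cells in low-RNA clusters were set aside, 110 neutrophils, 385 type 2 conventional dendritic cells (cDC2) and 2559 other leukocytes, cDC2 included. Macrophages held all 7 of their markers. The neutrophil cluster held all 6 neutrophil markers, together with all 7 macrophage markers at a summed 229 to 1288 CPM. Among macrophages, 507 cells fell into 2 inflammatory clusters, called Spp1-led (316 cells) and Nlrp3-led (191 cells) after 1 of their top genes. By fold over other macrophages, Mmp12 itself ranked ahead of Spp1 in the Spp1-led cluster. Sowahc and Ccr2 ranked ahead of Nlrp3 in the Nlrp3-led cluster. That cluster scored 0.391 on the inflammatory markers and 0.242 on the next list, that of immediate early genes. Their share of macrophages was 3.9% to 14.5% in the 5 Jak2WT mice, 6.5% to 9.7% in the 3 mutant mice with dilation, and 66.8% and 50.8% in aneurysm mice 7 and 9.

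Levels are given as CPM, UMIs of the gene per 1000000 UMIs of the same cells, and are set side by side for 1 gene across classes and not between genes. Mmp12, Mmp13, Mmp14, Timp1 and Ctss had their highest pooled level in the Spp1-led inflammatory cluster, Mmp8 and Mmp9 in neutrophils, Mmp19 in cDC2, and Timp2 in resident macrophages that express the lectin Clec10a (MGL1). These orders are descriptions, since the same cells defined the classes. Of all leukocyte UMIs of Mmp12, 76.2% came from the Spp1-led cluster, and the shares were 65.4% for Mmp14, 60.4% for Mmp13 and 48.2% for Timp1. Neutrophils gave 74.3% of the Mmp8 UMIs and 39.9% of the Mmp9 UMIs.

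**Figure D1:**
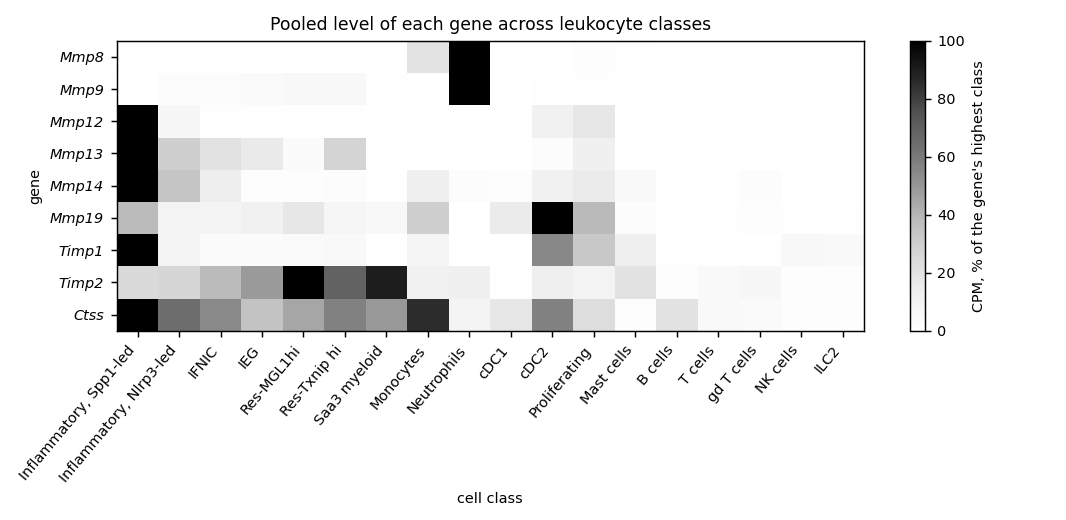
Heat map of 9 genes (vertical axis) over 18 leukocyte classes (horizontal axis), with the pooled CPM of each class as a percent of that gene's highest class, from 0 (white) to 100 (black). The darkest squares sit in the Spp1-led inflammatory macrophages for Mmp12, Mmp13, Mmp14, Timp1 and Ctss, in neutrophils for Mmp8 and Mmp9, in cDC2 for Mmp19, and in MGL1-high resident macrophages for Timp2.

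Only mice 7 and 9 had at least 10 cells in the Spp1-led cluster. Mmp12, the elastase, stood there at 553 CPM in mouse 7 and 384 CPM in mouse 9, against 34 ± 37 CPM (SD, n = 4 mice) in the Nlrp3-led cluster and 71.1 ± 126 CPM (SD, n = 9) in cDC2. Mmp14, the membrane-bound metalloproteinase, was at 59 and 97.7 CPM in the Spp1-led cluster and at 33.6 ± 15.3 CPM (SD, n = 4) in the Nlrp3-led cluster. The 2 clusters did not overlap for Mmp12 or for Mmp14, whose highest Nlrp3-led value was 47.9 CPM. The 4 Nlrp3-led mice were mice 7 and 9, Jak2WT mouse 2 (10 cells) and dilation mouse 10 (19 cells). Mice 7 and 9 held both clusters, and in each of them both genes were higher in the Spp1-led cells. The share of all genes that separate the clusters in this way was not computed. Ctss was at 2381 and 2386 CPM in the Spp1-led cluster, 1622 ± 346 CPM (SD, n = 4) in the Nlrp3-led cluster and 1212 ± 193 CPM (SD, n = 9) in cDC2, and the Nlrp3-led and cDC2 values overlapped. Timp2 ranged over 1230 ± 147 CPM (SD, n = 8) in MGL1-high resident macrophages, 1026 ± 116 CPM (SD, n = 3) in a myeloid cluster marked by Saa3 and 849 ± 91.3 CPM (SD, n = 10) in Txnip-high resident macrophages. The first and second of these overlapped. Ctsk was close to absent from the leukocytes, with 32 UMIs in 4790 cells. In 47 cells of a fibroblast and mural cell cluster left over from the sort, Ctsk reached 249 CPM (exact 95% Poisson interval 207 to 297, counting error only), Timp1 109 CPM and Timp2 1827 CPM.

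The UMIs of these genes were spread very unevenly over cells. In the 316 Spp1-led cells, 97 held an Mmp12 UMI, the highest cell held 181, and the 10 cells with most held 51.9% of 2366 UMIs. Mmp13 was found in 19 of those cells, and 10 cells held 90% of its 221 UMIs. Timp1, an inhibitor of secreted metalloproteinases, was found in 40 cells, with 72% of 150 UMIs in 10 cells. Mmp14 was the exception, found in 171 cells with 18.9% of 403 UMIs in its top 10. Of the 19 Mmp13 cells, 13 also held Mmp12 (68.4%), which made up 13.4% of the Mmp12 cells. Timp1 and Mmp13 were found together in 1 cell. Median depth was 16776 UMIs in the cells with Mmp12 and 14744 in those without, and its part in these shares was not tested. Each cell was also thinned to 2000 UMIs, which leaves a UMI of Mmp12 in 19.7% of the Spp1-led cells and of Mmp14 in 14.2% (30.7% and 54.1% unthinned), against 0.255% and 0.122% of B cells, whose median depth was 5390 UMIs against 15191.5 in the Spp1-led cells.

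The main question was whether macrophages of aneurysms differed in these genes from those of dilated mutant aortas. Macrophage sums of Mmp12, Mmp14, Timp1 and Ctss were higher in aneurysm mice and those of Mmp9 and Timp2 were lower, so that 6 of the 9 genes that passed the filter on low counts were called, 4 higher and 2 lower. Over all 9049 genes tested, 5.85% were called higher and 3.87% lower. The median log2 fold change was 1.01 over the 9 genes and -0.001 over all genes. Ctsk did not pass the filter. Mmp8, Mmp14 and Timp1 did not pass it in the comparison of genotypes. They passed here because the filter asks for as many mice as the smallest group holds, the 2 aneurysm mice. Mmp14 and Timp1 are high in these 2 mice, while Mmp8, not called, was highest in Jak2WT mouse 3 (12.8 CPM). The entry of Mmp14 and Timp1 among the 9 genes, their calls and their weight in the median are therefore not independent of the difference. In sums over all macrophages, more cells of a kind and more RNA per cell cannot be told apart, so levels with and without the inflammatory clusters follow below.

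Among the metalloproteinases, Mmp14 was at 3.02, 5.44, 1.16, 8.17 and 6.42 CPM in Jak2WT mice 1 to 5, at 2.92, 2.84 and 4.38 CPM in dilation mice 6, 8 and 10, and at 34 and 56.3 CPM in aneurysm mice 7 and 9. The aneurysm mice were above all 8 others. Here and for the genes below, the share of all genes that set the aneurysm mice apart in this way was not computed. Mmp14 rose by 3.71 ± 0.35 on the log2 scale (SE), a 13.1-fold difference (adjusted p = 3.49e-05, edgeR quasi-likelihood test with Benjamini-Hochberg adjustment). Mmp12 was at 35.3, 60.8, 5.82, 2.04 and 48.1 CPM in the Jak2WT mice, at 3.65, 92.3 and 21.9 CPM in the dilation mice, and at 222 and 207 CPM in the aneurysm mice. Its values varied widely among the mice without an aneurysm, and both aneurysm mice lay above them. The log2 fold change of Mmp12 was 2.58 ± 0.66 (SE), 6-fold, with an edgeR adjusted p of 0.0237. That call ended with DESeq2 (adjusted p = 0.316), and ended without dilation mouse 6 or 10 or without either aneurysm mouse (adjusted p from 0.0701 to 0.12).

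Mmp9, the gelatinase, went the other way. It was at 28.2, 64.4, 50.1, 12.3 and 28.1 CPM in the Jak2WT mice, at 78.8, 38.4 and 35 CPM in the dilation mice, and at 11.9 and 16.7 CPM in the aneurysm mice. The aneurysm mice lay below the 3 dilation mice but overlapped with Jak2WT mouse 4. Neutrophil markers in these macrophages (5 of 6 found, Ly6g at 0) summed to 30.2 to 41.9 CPM in Jak2WT and 31.4 to 37.9 CPM in dilation mice. They summed to 42.8 to 145 CPM in aneurysm mice, and their part in the Mmp9 values was not tested. The log2 fold change was -1.70 ± 0.42 (SE), to 0.308 of the level in dilation (edgeR adjusted p = 0.0193). Without dilation mouse 6, or without either aneurysm mouse, it was no longer called (adjusted p from 0.0783 to 0.171).

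Of the remaining metalloproteinases, Mmp13 had an edgeR adjusted p of 0.0584, Mmp19 of 0.197 and Mmp8 of 0.845, and none of these was called. Mmp19, an enzyme that cleaves basement membrane proteins, reached 67.3 CPM in mouse 9 but 21.2 CPM in mouse 7, while the dilation mice lay between 17.9 and 27 CPM. Mmp13 was at 16.4 and 22.8 CPM in the aneurysm mice, above the dilation mice (1.46, 5.68 and 8.75 CPM) and within the Jak2WT range of 9.31 to 59.3 CPM. Leaving out the filter on low counts called both, Mmp13 at a log2 fold change of 1.82 and Mmp19 at 1.05. So did leaving out Jak2WT mouse 4 for Mmp13 (1.76). Without mouse 7 the log2 fold change of Mmp19 was 1.59. The fit without the filter also moved the edgeR adjusted p of Mmp12 from 0.0237 to 2.25e-45, so its calls are not read as support.

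The inhibitors moved in opposite directions. Timp1 was at 4.03, 0, 0, 0 and 0.802 CPM in the Jak2WT mice, at 0, 1.42 and 1.09 CPM in the dilation mice, and at 8.33 and 23 CPM in the aneurysm mice. The dilation mice held 5 Timp1 UMIs in all their macrophages and the aneurysm mice 161, of which 124 were in mouse 9. Fibroblast and mural cell markers, a list of cells in which Timp1 is also found, summed to 24.1 to 25.9 CPM in aneurysm and 25.6 to 50.3 CPM in dilation macrophages (8 of 8 found). The log2 fold change was 4.11 ± 0.72 (SE), 17.3-fold (edgeR adjusted p = 0.00234). Timp1 lost its call without mouse 9 (log2 fold change 3.19, adjusted p = 0.0775) and when cells were assigned to mice by another method (1.90, adjusted p = 0.0761). Timp2, which inhibits metalloproteinases and also takes part in activating Mmp2, was at 687, 689, 590, 758 and 751 CPM in the Jak2WT mice, at 795, 865 and 771 CPM in the dilation mice, and at 525 and 531 CPM in the aneurysm mice. Both aneurysm mice lay below all other mice. Resident macrophage markers (6 of 6 found) were also lower in them, at a summed 2858 to 3480 CPM against 5118 to 7461 CPM in the other 8 mice. The log2 fold change was -0.54 ± 0.14 (SE), to 0.687 of the dilation level (edgeR adjusted p = 0.0211), and its call ended without dilation mouse 8 or either aneurysm mouse (adjusted p from 0.0575 to 0.139) and against all 8 other mice (-0.40, adjusted p = 0.0594).

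Ctss was at 1359, 958, 873, 1528 and 962 CPM in the Jak2WT mice, at 1046, 1040 and 1024 CPM in the dilation mice, and at 1748 and 1828 CPM in the aneurysm mice. The dilation mice were close together and both aneurysm mice were above every other mouse. The log2 fold change was 0.86 ± 0.20 (SE), 1.82-fold (edgeR adjusted p = 0.0137). It too was not called without either aneurysm mouse or without dilation mouse 8 or 10 (adjusted p from 0.0513 to 0.0827). Across the 10 fits that left out 1 mouse, the log2 fold change of Mmp14 ran from 3.3 to 4.01. It entered these fits through the aneurysm mice, where it is high, so they are not read as independent support.

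**Figure D2:**
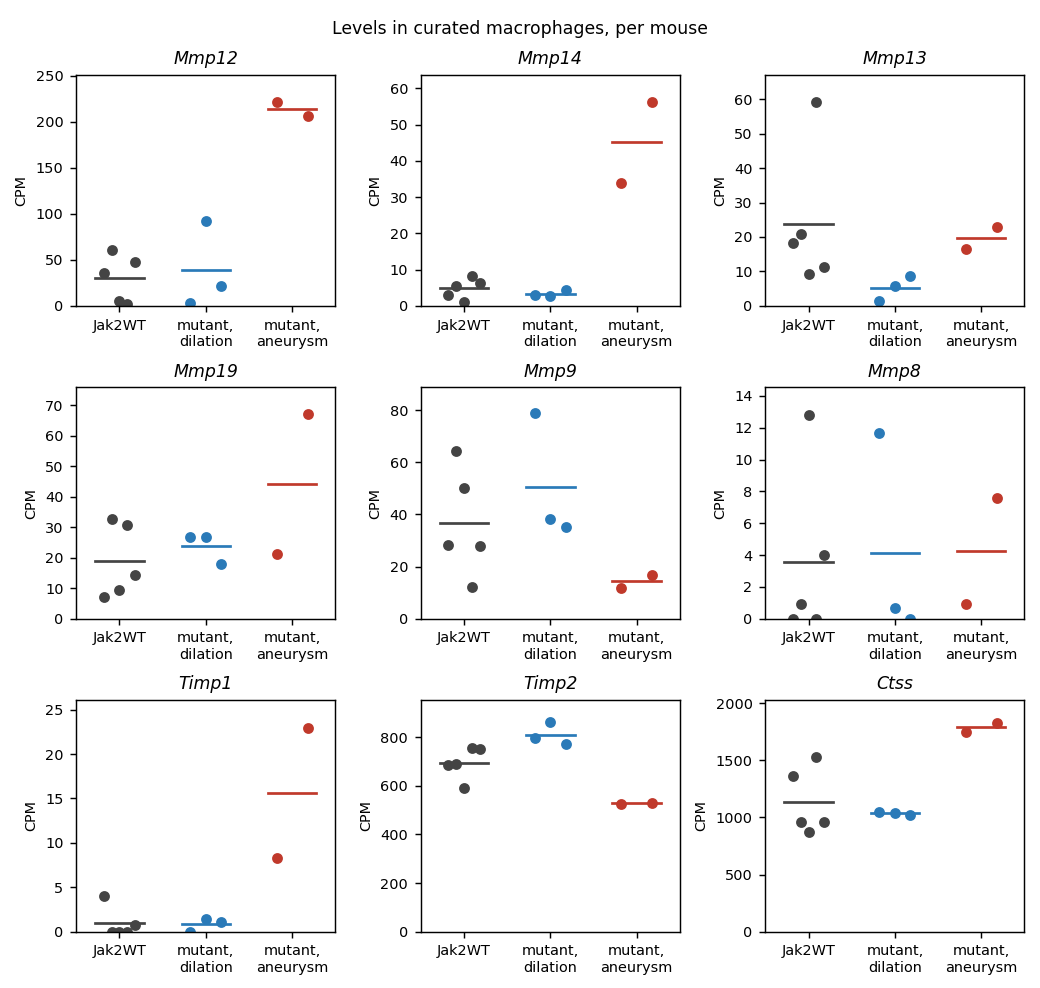
CPM of 9 genes in curated macrophages (vertical axes, linear, starting at 0), by group (horizontal axes), with a point for each mouse and a bar for the group mean over 5 Jak2WT, 3 dilation and 2 aneurysm mice. The 2 aneurysm mice sit above all other mice for Mmp12, Mmp14, Timp1 and Ctss and below all others for Timp2. The share of all genes that separate these mice in the same way was not computed.

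The inflammatory clusters made up 58.5% of macrophages in the aneurysm mice, 8.2% in the dilation mice and 7.2% in the Jak2WT mice, so each gene was followed with and without them. In aneurysm macrophages, the inflammatory clusters held 99.6% of the Mmp12 UMIs, 95.7% of Timp1, 94.5% of Mmp14, 89.3% of Mmp13, 75.8% of Ctss and 75.3% of Mmp19. Their shares were smaller than their share of cells for Timp2 (34.6%) and Mmp9 (22.4%). For Mmp9 this was also so in dilation (3.1%) but not in Jak2WT mice (10.9%). Mmp12 came mostly from these clusters in the other groups too, with 93.3% of its UMIs in dilation and 89.3% in Jak2WT.

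Among macrophages outside the inflammatory clusters, none of the 6 members that passed the filter was called between aneurysm and dilation (Mmp12, Mmp14 and Timp1 did not pass), and 1 gene was called over the whole table. Mmp12 there was at 2.7 and 1.78 CPM in the aneurysm mice and between 2.04 and 3.89 CPM in the dilation mice. Mmp14 was at 10.1 and 4.45 CPM, still above the dilation mice (0.78 to 3.11 CPM), while Jak2WT mice reached 6.76 CPM. Timp1 was at 2.02 and 1.78 CPM in the aneurysm mice and up to 1.56 CPM in the dilation mice. Ctss was at 1245 and 1080 CPM against 978 to 1017 CPM in the dilation mice, a log2 fold change of 0.19. Timp2 turned its direction, from -0.54 to 0.10 on the log2 scale, with 941 and 891 CPM in the aneurysm mice against 820 to 884 CPM in the dilation mice. Mmp9 kept its sign at a log2 fold change of -0.87 (edgeR adjusted p = 0.972).

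**Figure D3:**
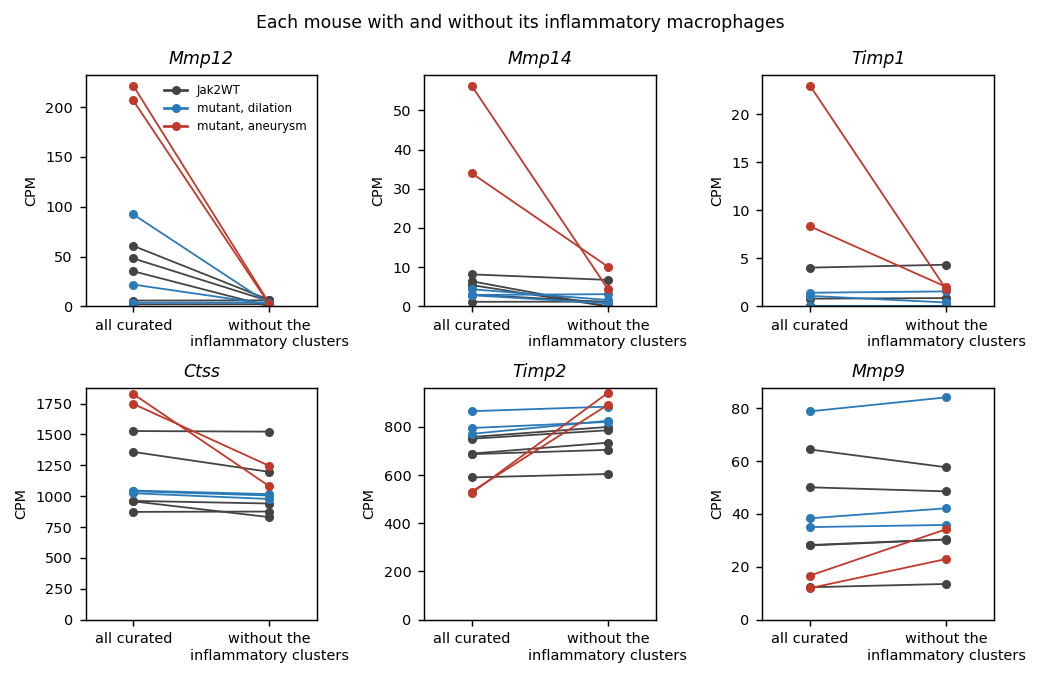
CPM of 6 genes (vertical axes, linear, starting at 0) in each mouse's curated macrophages on the left of each panel and in the same mouse without its inflammatory clusters on the right, joined by a line (grey Jak2WT, blue dilation, red aneurysm). The red lines fall to the level of the other mice for Mmp12 (1.78 to 2.7 CPM) and rise for Timp2 (to 891 and 941 CPM).

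Within the inflammatory macrophages, 4 mice had at least 10 cells, Jak2WT mouse 2 (16 cells), dilation mouse 10 (24), and aneurysm mice 7 (237) and 9 (193). Mmp12 was at 367 CPM in mouse 2, 192 CPM in mouse 10, and 331 and 353 CPM in the aneurysm mice. The Jak2WT mouse was thus at the top of this range, on 61 UMIs. Spp1-led and Nlrp3-led cells numbered 6 and 10 in mouse 2 and 5 and 19 in mouse 10. They numbered 127 and 110 in mouse 7 and 163 and 30 in mouse 9. The part of this mix in the levels of Mmp12 and of the genes that follow was not tested. Mmp14 was at 36.1, 28, 45.9 and 93.4 CPM in mice 2, 10, 7 and 9, Timp2 at 434, 304, 317 and 274 CPM, and Ctss at 1680, 1419, 1999 and 2363 CPM. In the same order, Mmp9 was at 102, 28, 6.42 and 4.13 CPM, on 17, 8, 19 and 13 UMIs. Mmp13 was at 90.3, 66.4, 24 and 33 CPM, so both genes were lowest in the aneurysm mice. Mmp19 was at 66.2, 17.5, 20.3 and 90.2 CPM, and Timp1 at 0, 6.99, 11.5 and 38.1 CPM. With 1 mouse in each of the other groups, no test was made.

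The genotypes were compared over all 5 mice each. In macrophages, none of the 6 members that passed the filter was called, beside 0% of all 8199 genes higher and 0% lower (edgeR, 0 genes called, 997 at an unadjusted p under 0.05, and 49 called by DESeq2, no member among them). Their log2 fold changes ran from -0.67 (Mmp13) to 1.81 (Mmp12, adjusted p = 0.399), with a median of 0.154 against -0.01 over all genes. Mmp12 was at 30.4 ± 25.8 CPM in Jak2WT and 109 ± 101 CPM in mutant mice (SD, n = 5 each). Mmp14 and Timp1, high in 2 of the 5 mutant mice, did not pass the filter in this comparison.

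Resident macrophages (562 cells of the MGL1-high and Txnip-high clusters, 29 to 94 per mouse) carried Timp2, Ctss, some Mmp9 and some Mmp19. Pooled over mice, Mmp9 was at 49.6 CPM and Mmp19 at 23.7 CPM. The MGL1-high cluster scored 2.144 on its own markers and 1.473 on the list S100a4, S100a6 and S100a10. The study describes another resident subset rich in such S100 genes, and no cluster here was named from that list. Whether its cells lie within the MGL1-high cluster was not tested. No member was called between genotypes, where 0.487% of 6366 genes were higher and 0.267% lower, and 4 members passed the filter. None of 5 was called between aneurysm and dilation, where 0% of 7387 genes were higher and 0% lower (edgeR, 0 genes called, 285 at an unadjusted p under 0.05, 2 called by DESeq2). Timp2 was at 912, 1063, 932, 1023 and 1040 CPM in the Jak2WT mice and at 1038, 1403, 1180, 1158 and 1121 CPM in mutant mice 6 to 10. The values overlapped, and the log2 fold change was 0.26 (adjusted p = 0.262). Pooled over mice, Timp2 was at 1250 CPM in MGL1-high and 857 CPM in Txnip-high cells, and the mix of these clusters per mouse is given below. Ctss was at 1266 ± 323 CPM in Jak2WT and 1121 ± 78.1 CPM in mutant mice (SD, n = 5 each). Mmp9 ranged from 10.5 to 59.2 CPM in Jak2WT and from 37 to 122 CPM in mutant mice, with mouse 6 far above the others.

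Mmp13 in resident macrophages was lower in every mutant mouse than in any Jak2WT mouse, by a narrow gap. The closest were mutant mouse 9 at 3.11 CPM (3 UMIs) and Jak2WT mouse 1 at 3.66 CPM (2 UMIs). The share of all genes that separate the genotypes in this way was not computed. It was at 3.66, 4.93, 27, 21 and 13.9 CPM in the Jak2WT mice and at 0, 0, 1.54, 3.11 and 0.935 CPM in mutant mice 6 to 10. These values rest on 26 UMIs in the Jak2WT mice and 5 in the mutant mice, and Mmp13 did not pass the filter. Without the filter its log2 fold change was -3.07 and it was called, but calls of fits without the filter are not read as support here. Among all macrophages outside the inflammatory clusters, where it did pass, the log2 fold change was -1.71 with an adjusted p of 0.145, and the Jak2WT mice lay between 8.54 and 20.3 CPM against 0.78 to 8.45 CPM in mutant mice. Pooled over mice, Mmp13 was at 12 CPM in Txnip-high (26 UMIs) and 1.27 CPM in MGL1-high resident macrophages (5 UMIs). Jak2WT mice 1 to 5 held 39, 12, 26, 21 and 44 Txnip-high and 14, 24, 6, 8 and 32 MGL1-high cells. Mutant mice 6 to 10 held 18, 15, 16, 18 and 33 Txnip-high and 39, 32, 40, 64 and 61 MGL1-high cells. The part of this mix in the Mmp13 and Timp2 values was not tested.

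Neutrophils were few, 3 to 40 per mouse, and only Jak2WT mouse 3 and aneurysm mice 7 and 9 had at least 10, so their levels are given without a test. Mmp8 was at 763 CPM in mouse 3 and at 169 and 228 CPM in mice 7 and 9. Mmp9 was at 1497, 869 and 332 CPM in the same mice, and Timp2 at 311, 181 and 90.4 CPM. In each case the Jak2WT mouse was the highest of the 3. The summed neutrophil markers were at 168100 CPM in mouse 3 and between 60490 and 200400 CPM in the other pair, and their part in these values was not tested. With at least 5 cells per mouse (3 against 3), Mmp8 had a log2 fold change of -3.17 (edgeR adjusted p = 0.183) and Mmp9 of -1.37 (0.217), neither called, beside 0% of 804 genes higher and 0% lower (0 called, 147 at an unadjusted p under 0.05). Over all 110 neutrophils, 41 held Mmp8 and 10 of them held 86.1% of its 352 UMIs. Mmp9 was found in 77 neutrophils.

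Mmp8 and Mmp9 were also detected outside the neutrophil cluster, in several classes. Beside neutrophils, most Mmp8 UMIs came from monocyte-like cells (47), proliferating cells (35) and the Spp1-led cluster (29). Mmp9 had 18 and 11 UMIs in the proliferating cells and the Spp1-led cluster, and more in macrophages named from the immediate early genes Egr1, Jun and Zfp36 (198), in low-RNA macrophages (55) and in the Nlrp3-led cluster (49). Resident macrophages held 303 Mmp9 UMIs in 113 of 562 cells and not a single Mmp8 UMI, which allows up to 3 counts or 0.491 CPM. They held 37 UMIs of the neutrophil gene S100a8, which makes 8190 Mmp9 UMIs per 1000 of S100a8, against 19.7 in neutrophils. After thinning, 8.17% of resident macrophages held an Mmp9 UMI, against 0.102% of B cells, 0.883% of T cells and 1.72% of NK cells, with median depths of 10468.5, 5390, 6294 and 7630 UMIs (20.1%, 0.357%, 2.45% and 5.33% unthinned). A cluster of 29 monocyte-like cells held 47 Mmp8 UMIs in 11 cells from 6 mice, 120 CPM (exact 95% Poisson interval 88 to 159, counting error only), and 1 Mmp9 UMI. It held 11 S100a8 UMIs, or 4270 Mmp8 UMIs per 1000 of S100a8 against 13.2 in neutrophils. The proliferating cells held 7653 S100a8 UMIs (2423 CPM). Their 4.57 Mmp8 and 2.35 Mmp9 UMIs per 1000 of S100a8 were below the neutrophil ratios. The Spp1-led cluster held 191 S100a8 UMIs, with 152 Mmp8 and 57.6 Mmp9 UMIs per 1000. The part of neutrophil-like cells or free RNA in these counts was not tested.

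In cDC2, 9 mice had at least 10 cells. No member was called between genotypes, where 0.0241% of 4156 genes were higher and 0% lower, and 4 members passed the filter. Mmp19 was at 326, 316, 28.5 and 157 CPM in Jak2WT mice 1, 2, 4 and 5 and at 202, 101, 74.3, 130 and 371 CPM in mutant mice 6 to 10, and the groups overlapped over their whole range. Mmp12 had a log2 fold change of -1.95 (edgeR adjusted p = 0.621), which was 0.11 without Jak2WT mouse 2. That mouse was at 397 CPM and the other 8 at 0 to 84.4 CPM, and 1 cDC2 held 115 of the 337 Mmp12 UMIs of the cluster. Timp1 was found in 26 cDC2 and was at 0 to 3.83 CPM in Jak2WT mice, at 0, 8.25 and 56.5 CPM in the dilation mice and at 20.5 and 8.32 CPM in the aneurysm mice. It did not pass the filter. Without the filter Timp1 (4.11) and Mmp12 (-1.91, log2 fold changes) were both called, but calls of fits without the filter are not read as support here. Macrophage markers summed to 662 to 1982 CPM in the cDC2 of Jak2WT mice and to 1494 to 4075 CPM in those of mutant mice, and their part in these values was not tested.

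**Figure D4:**
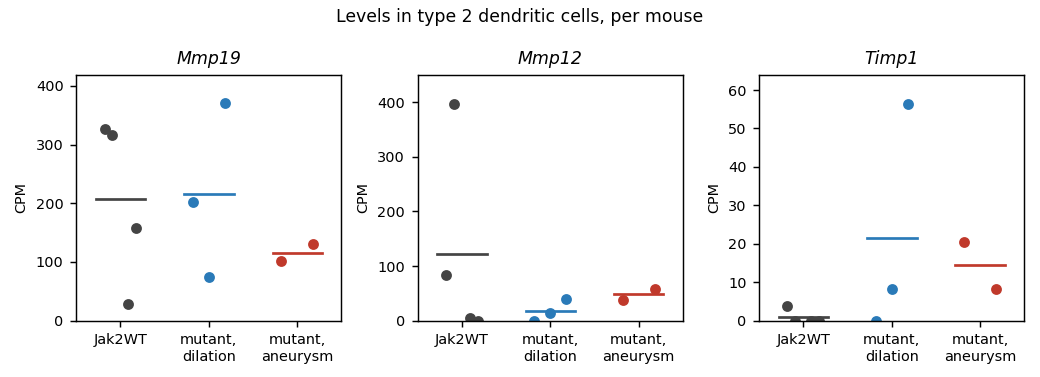
CPM of Mmp19, Mmp12 and Timp1 in cDC2 (vertical axes, linear, starting at 0), by group (horizontal axes), with a point for each mouse with at least 10 such cells and a bar for the group mean over 4 Jak2WT, 3 dilation and 2 aneurysm mice. Mmp19 ranges from 28.5 to 371 CPM with the groups overlapping, and a single Jak2WT mouse stands at 397 CPM for Mmp12.

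Over all other leukocytes together, none of the 5 members that passed the filter was called between genotypes, beside 0% of 9537 genes higher and 0% lower (edgeR, 0 called, 823 at an unadjusted p under 0.05, 44 called by DESeq2, no member among them). Timp2 was at 474 CPM in Jak2WT mouse 5 and 473 CPM in dilation mouse 10, against 95.6 to 236 CPM in the other 8 mice. Those mice gave 77 and 99 of the 208 cells of the Saa3 cluster, where Timp2 was at 1063 and 1120 CPM. B, T, gamma delta T, NK cells and ILC2 carried little of any metalloproteinase, with at most 8.43 CPM of Mmp9 (in NK cells) and 2.54 CPM of Mmp19 (in gamma delta T cells) as pooled values. The 37 B cells in a cluster with macrophage genes held 46.4 CPM of Mmp9 and 16 CPM of Mmp13.

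Wider protease lists were read in the same fits. In macrophages of aneurysm against dilation, none of 16 other matrix metalloproteinases and none of 3 other tissue inhibitors in the table passed the filter. The counts that follow stand beside 5.85% higher and 3.87% lower over all genes tested, and outside the inflammatory clusters 1 gene of the whole table was called. Of 7 tested ADAM and ADAMTS proteases, 2 rose and 1 fell, with the sheddases Adam8 (log2 fold change 2.94, edgeR adjusted p = 7.09e-05) and Adam17 (0.92, 0.00208) higher and Adam19 (-0.69, 0.0343) lower. Of 10 other cathepsins, 3 rose, among them Ctsd (1.92-fold) and Ctsz (1.51-fold), and 2 fell (Ctsf to 0.53 and Ctso to 0.663 of the dilation level). Both tested serine proteases of matrix turnover rose, Furin, which cleaves the proenzyme of Mmp14, by 2.29-fold and Plau, the urokinase plasminogen activator, by 1.75-fold. No cystatin of 2 and no serine protease inhibitor of 7 was called. Median log2 fold changes were -0.15 for the ADAM list, 0.164 for the cathepsins, 1.00 for the serine proteases, 0.153 for the cystatins and -0.15 for the serine protease inhibitors, against -0.001 over all genes. In the other comparisons no gene of these lists was called.

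Across 17 cell classes, the genes outside the lists whose levels ran most like each member's were named by Pearson's r of log2(CPM + 1) over class means, among 6020 genes with at least 50 CPM in a class. The classes share 1 library and the cells that defined them, so r is a description. Mmp8 ran most like Trem3 (0.966), S100a9 (0.957) and Mrgpra2b (0.951). Mmp9 ran like P2ry13 (0.865), Tlr6 (0.852) and Pnpla2 (0.836). Mmp12 ran like Tnip3 (0.819), Bax (0.789) and Lpl (0.751), and Mmp14 like Spp1 (0.875), Cx3cr1 (0.834) and Nes (0.818). Mmp19 ran like Psma4 (0.885), Ywhag (0.881) and Vim (0.876). Timp2 ran like Hacd4 (0.936), Nfia (0.934) and Tcn2 (0.926), and Ctss like Ly86 (0.962), Stom (0.945) and Cd40 (0.945). Mmp13 (at most 38.6 CPM in a class), Timp1 (29.4 CPM) and Ctsk (2.84 CPM) did not reach 50 CPM in any class mean, and their best matches had r of 0.82, 0.759 and 0.713.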

How the data were processed

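CITE-seq RNA counts of aortic CD45+ cells of 10 mice were used. The authors deposited whole, unnormalized UMI counts made with Cell Ranger (mm10). The labels list Seurat 3.0.0 among the tools. No column of values was set aside. Cells were assigned to mice with HTODemux (quantile 0.99) in Seurat 5.3.0, and 2265 barcodes with more than 1 hashtag and 349 with none were removed. Doublets within a mouse were not removed, and 37 B cells in a cluster with macrophage genes stayed among the other leukocytes. Cells over 10% mitochondrial counts were dropped. Clustering used 2000 variable genes, 89 listed protease genes left out, 20 components and a resolution of 0.3 (0.8 within macrophages), and a cluster was named from at least 3 markers. Macrophage clusters whose median UMI count was under that of all macrophages divided by 3 were set aside. UMIs were summed per mouse and class (at least 10 cells). Sums were tested with edgeR 4.0.16 (filterByExpr, TMM, quasi-likelihood F test, Benjamini-Hochberg over all genes tested, threshold 0.05) in R 4.3.3, with DESeq2 1.42.0 as an alternative. The test was also run on simulated counts. These gave all genes 1 common dispersion, unlike the real counts, so that run is not read as support. The members and gene lists were chosen with earlier results of these data known. All 10 members are reported, with fold changes for those called and, chosen after their values were seen, for some others. Of the wider lists, at most 4 called genes are named per list. All 10 mice share 1 sort and 1 run. The SE of a log2 fold change was derived as its absolute value divided by the square root of the F statistic. The p-values weigh a difference against the spread between mice. In the fits of aneurysm against dilation, the Jak2WT mice entered as a group of their own and share in that estimate of the spread.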

Additional observations from a re-analysis of the deposited data

Results flagged for a closer look

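A mouse stood far from the rest of its genotype in 8 of 49 groups of 4 or 5 mice whose highest mouse held at least 10 UMIs, a limit set after the data were seen. About 1 in 20 groups of independent, normally spread values would hold such a mouse. The values here rest partly on low counts and some classes lie within others, so that rate need not hold and is not compared with the 8. In curated macrophages, Mmp13 was at 59.3 CPM in Jak2WT mouse 4 (others 9.31 to 20.8) and Mmp19 at 67.3 CPM in mutant mouse 9 (others 17.9 to 27). In resident macrophages, Mmp9 was at 122 CPM in mutant mouse 6 (others 37 to 49.4) and Mmp19 at 45.5 CPM in Jak2WT mouse 4 (others 11 to 18.5). In other leukocytes, mutant mouse 9 was highest for Mmp8 (6.87 CPM, others 0.509 to 2.22) and for Mmp12 (78.8 CPM, others 0 to 19), and Jak2WT mouse 5 for Timp2 (474 CPM, others 95.6 to 164). In cDC2, Timp2 was at 304 CPM in mutant mouse 8 (others 132 to 157). The Mmp13 and Mmp19 values of mouse 4 rest on 29 and 13 UMIs and the Mmp8 value on 26, while the others rest on 78 to 1931 UMIs.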

How the results depend on the processing

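No paired analysis was possible because each hashtag number names a single mouse and no number pairs mice between groups. In macrophages, aneurysm against dilation, 879 genes were called, 350 to 1012 with 1 mouse left out (350 without mouse 7, 399 without mouse 9, 517 without mouse 10) and 1 outside the inflammatory clusters, where Timp2 reversed to a log2 fold change of 0.10. Mutant against Jak2WT, 0 genes were called in macrophages, against 49 with DESeq2, 24 with no filter on low counts, 1 for dilation against Jak2WT, 269 in a fit of 3 groups, 33 outside the inflammatory clusters and 0 to 5 with 1 mouse left out. In resident macrophages, 48 genes were called between genotypes, against 93 with DESeq2, 297 with no filter, 200 with MULTIseqDemux assignment, 166 at a mitochondrial limit of 5%, 156 with the listed genes kept in the clustering, 3 for dilation against Jak2WT and 4 to 142 with 1 mouse left out (4 without mouse 1, 142 without mouse 2). Between aneurysm and dilation, 0 resident macrophage genes were called, against 2 with DESeq2, 37 with no filter, 2 with MULTIseqDemux, 2 at the 5% limit, 1 with the listed genes kept, 2 against all other mice and 0 to 4 with 1 mouse left out. In cDC2, 1 gene was called, against 11 with DESeq2, 70 with no filter, 0 at the 5% limit, 2 with the listed genes kept and 1 to 4 with 1 mouse left out. In other leukocytes, DESeq2 called 44 genes and edgeR 0, also over lymphocytes alone, an alternative chosen after seeing the data. The cause of these changes was not tested. For neutrophils, the alternative of at least 5 cells was the one fitted. With 2 aneurysm mice, leaving out 1 leaves a lone mouse that is assumed to vary like the other groups. Depth limits what can be said of Ctsk (32 UMIs over all leukocytes), Timp1 (311), Mmp13 (366) and Mmp8 (474).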
